A study of Saccharomyces cerevisiae with 27 samples.

Results

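The 56 RPS genes of budding yeast, which encode the protein subunits of the small (40S) ribosomal subunit, are described here across 8 genotypes. The members were given as a list of gene identifiers, and all 56 were found among the 6664 genes of the RNA table. They form 24 pairs of A and B copies and 8 genes of 1 copy, among them RPS2, RPS3, RPS15 and RPS31. By the authors' gene coordinates on sacCer3, 36 members span more bases than their coding length and so hold an intron between coding start and end. The other 20 do not, and are called members with no intron below. An intron in the leader would not be seen in this way. All 56 passed the filter of 5 FPKM in every comparison. No measured value set their choice, though it was made with earlier results of these data known.

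Ribosomal protein genes are among the most heavily transcribed genes of a growing yeast cell. Their promoters are bound by Rap1 or Abf1 and by Fhl1 with its partner Ifh1, and nutrient and stress signalling through TOR, Sfp1 and Sch9 moves them together. Most yeast genes lack introns, but the genes for ribosomal proteins often carry an intron close to the 5′ end of the reading frame. Many ribosomal proteins are made from a pair of copies left by an ancient genome duplication, which differ in output and often in regulation.

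The study dealt with the INO80 chromatin remodelling complex and the boundary between active and silent chromatin, where Sir3 is a silencing protein. RNA profiles were made for BY4741, a wild type, and for strains of that background that lack SIR3, ARP5, IES6 or IES2, in a strain lacking both SIR3 and ARP5 (the sir3 arp5 strain), and in the wild type CY337 with its ino80 deletion strain. Arp5, Ies6 and Ies2 are INO80 subunits and Ino80 is the ATPase of the complex, and every mutant is a gene deletion, so that the only difference named between a strain and its wild type is the deletion. RNA came from cells in YPD at an OD600 of 0.8 to 1, as did the chromatin for H3K4me3 and H3K79me3 in BY4741 and in arp5, whose chromatin libraries are named arp5 in the titles but carry the genotype WT. Arp5 binding was mapped in a different strain, CY1838, labelled WT, at an OD of 0.6, after a nocodazole arrest and then a release into medium with alpha-factor.

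The 19 RNA libraries stand in the deposited table as 1 FPKM value per gene for each of the 8 genotypes, so no value below has an SD, no test was possible, and differences are given as log2 of (FPKM + 1) over the control with calls past 1.5-fold. Read totals were not among the values used here, so the depth is unknown. The deleted genes gave 0 to 0.523 FPKM in their own strains against 10.04 to 184.8 in the wild types. Whole chromosomes stood apart from the rest in some columns: the median change of the other genes of at least 300 bp was 0.38 on XI and 0.42 on XII in arp5, and 1.03 on III in ino80. In the sir3 arp5 strain, which had 1 library (labelled BIOO), it was 0.49 on I and 0.40 on III. Of the 7 genes that mark a cells, all 7 were lower past 1.5-fold in sir3, arp5, ies6 and the sir3 arp5 strain, while 1 was lower in ino80 and 0 in ies2. Their part in the results below was not tested.

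In BY4741 the 46 members of at least 300 bp had a median of 5169 FPKM, against 35.5 over all genes, and ranged from 539 FPKM for RPS9A to 23553 for RPS31. The median of the 46 was 5354 in sir3, 3643 in arp5, 3445 in ies6, 4015 in ies2, 5813 in sir3 arp5, 4967 in CY337 and 3624 in ino80. It was thus lowest in the 4 single deletions of an INO80 subunit and highest in the strain that lacks both Sir3 and Arp5. FPKM values are per length, but very short reading frames reach extreme values here: 117 genes under 150 bp hold 45.7% of all FPKM in BY4741 and 65.9% in sir3 arp5. Levels of the 10 members under 300 bp (both copies of RPS21, RPS27, RPS28, RPS29 and RPS30) are therefore left out of these levels; RPS30A among them had 31790 FPKM in BY4741.

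Without Sir3, RPS RNA was close to the wild type. The members' median log2 change was 0.10, against 0.00 over all genes tested, and 0 of 56 were past 1.5-fold in either direction, against 4.55% of all genes higher and 3.6% lower. Below 0 stood 8 members, against 49.3% of all genes. With quantile normalization 15 members were below 0 and with a loess of the change on the mean level 23, with medians of 0.057 and 0.016. As deposited, the 3 highest were RPS29B at 0.32, RPS22A at 0.31 and RPS13 at 0.30. The 3 lowest were RPS26A at -0.07, RPS9B at -0.05 and RPS19B at -0.05. No member moved far in either direction.

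In the strains that lack Arp5, Ies6, Ies2 or Ino80, most RPS genes had less RNA. The median member stood at 0.732 times its control in arp5 (log2 -0.45), 0.688 times in ies6 (-0.54), 0.740 times in ies2 (-0.44) and 0.733 times in ino80 (-0.45), while the median of all genes was between -0.02 and 0.00. All 56 members were below 0 in ies6, 50 in arp5, 53 in ies2 and 54 in ino80, against 51.3%, 50.2%, 52.4% and 50.7% of all genes. With the loess these were 47, 40, 38 and 31, and with quantile normalization 47, 38, 39 and 29, so that in ino80 the share was then close to that of all genes. As deposited, in all 4 strains 47 of 56 members were below 0, against 23.1% of all genes; arp5, ies6 and ies2 share the BY4741 column, so these are not independent comparisons. The changes were small and broad: members lower past 1.5-fold numbered 8 in arp5, 16 in ies6, 11 in ies2 and 7 in ino80, against 11.9%, 10.1%, 7.79% and 12.8% of all genes. The 2 members lower past 1.5-fold in all 4 strains were RPS17B (-0.64, -0.71, -0.69 and -0.70 in arp5, ies6, ies2 and ino80) and RPS18A (-0.66, -0.69, -0.59 and -0.64), named after their values were seen. The share of all genes that were so in all 4 was not taken. Under the loess or quantile normalization 0 members were lower past 1.5-fold in arp5 and in ies2, so none was in all 4. As deposited, 0 members were higher past 1.5-fold in arp5, ies6 and ies2, against 14.6%, 12% and 10.1% of all genes. In ino80 only RPS14A was, against 17.3%.

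**Figure D1:**
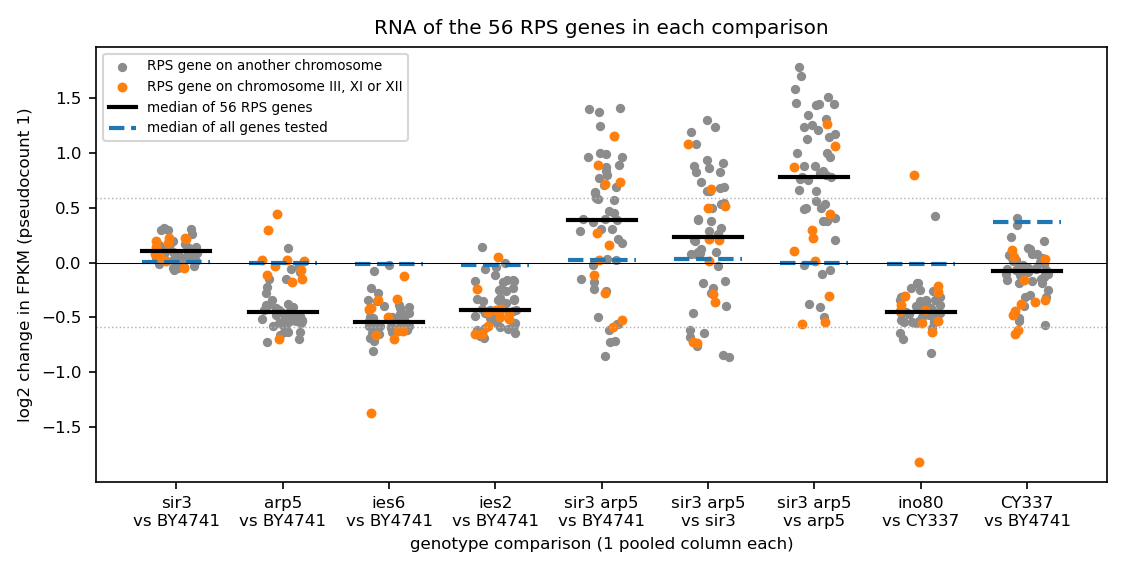
Log2 change in FPKM of each of the 56 RPS genes (points) in 9 comparisons, with members on chromosomes III, XI and XII in orange, the median of the members as a black line, the median of all genes tested as a dashed line, and 1.5-fold as dotted lines. The members' medians lie at -0.45, -0.54, -0.44 and -0.45 in arp5, ies6, ies2 and ino80, and spread widely in the sir3 arp5 strain.

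The size of this shift depends on how the columns are scaled. The other genes over 1000 FPKM, with the large-subunit RPL genes left out, had medians of -0.14 in arp5, -0.15 in ies6, -0.17 in ies2 and -0.44 in ino80. After a loess of the change on the mean level the members' medians were -0.19, -0.19, -0.10 and -0.02. With it 1 member was higher and 0 lower past 1.5-fold in arp5, in place of 0 and 8, and in ino80 2 and 1, in place of 1 and 7; quantile normalization gave 2 and 0, and 2 and 1. Under either, the members lower past 1.5-fold numbered 1 in ies6, in place of 16, and 0 in ies2, in place of 11. The median of ino80 was thus near that of other highly expressed genes. The 82 RPL genes (the large-subunit proteins) had medians of -0.39, -0.50, -0.42 and -0.39 in the same order.

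With the deposited scaling the 8 genes of 1 copy were below 0 in all 4 of these strains, against 47 of 56 members and 23.1% of all genes. RPS3, whose protein lines the channel where mRNA enters the ribosome, had 5104 FPKM in BY4741, 5059 in sir3, 3474 in arp5, 3328 in ies6, 3789 in ies2, 9462 in sir3 arp5, 4744 in CY337 and 2679 in ino80. RPS15, a protein of the head of the subunit, had 6616 FPKM in BY4741, 7118 in sir3, 5090 in arp5, 5024 in ies6, 5908 in ies2, 17543 in sir3 arp5, 6407 in CY337 and 5627 in ino80. Both genes were lower in each of the 4 single INO80 subunit deletions and highest in sir3 arp5.

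RPS20, a head protein, changed by -0.38 in arp5, -0.35 in ies6, -0.23 in ies2 and -0.46 in ino80. RPS12 changed by -0.42, -0.53, -0.45 and -0.48 in the same order. RPS13, the only gene of 1 copy with an intron between coding start and end, changed by -0.40, -0.53, -0.06 and -0.60. The value for ies2 stands apart from the other 3 for this gene. RPS31, whose product is a fusion of ubiquitin and a ribosomal protein, changed by -0.11, -0.50, -0.51 and -0.27. RPS2 changed by -0.27, -0.41, -0.25 and -0.55, but 231 bp of it overlap the listed frame YGL123C-A on the other strand, which has 5231 FPKM in BY4741, and whether strand was used in counting is unknown here, so reads of this pair may not have been told apart.

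In arp5 the lowest members were RPS9B, whose protein acts in decoding accuracy, at -0.73, RPS22B at -0.70 and RPS26B, a protein of the mRNA exit channel, at -0.70. The highest were RPS27A at 0.45, RPS0B at 0.29 and RPS28A at 0.13. RPS27A lies on XI and RPS0B on XII, where the chromosome medians were 0.38 and 0.42. The 8 members on XII had a median of -0.01 and the 46 members on neither XI nor XII had -0.48, so the medians of the members stood below those of the other genes in both places; RPS27A stood just above the level of XI. RPS1A, RPS25B, RPS28B, RPS29A and RPS30A on XII were between -0.07 and 0.03. With each gene centred on its chromosome, the members' median was -0.43, 51 of 56 were below 0, and RPS0B turned to -0.12. The 10 short members had a median of -0.06 and the 46 longer ones -0.48; 5 of the 10 lie on XI or XII, and the parts of length and chromosome were not tested.

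**Figure D2:**
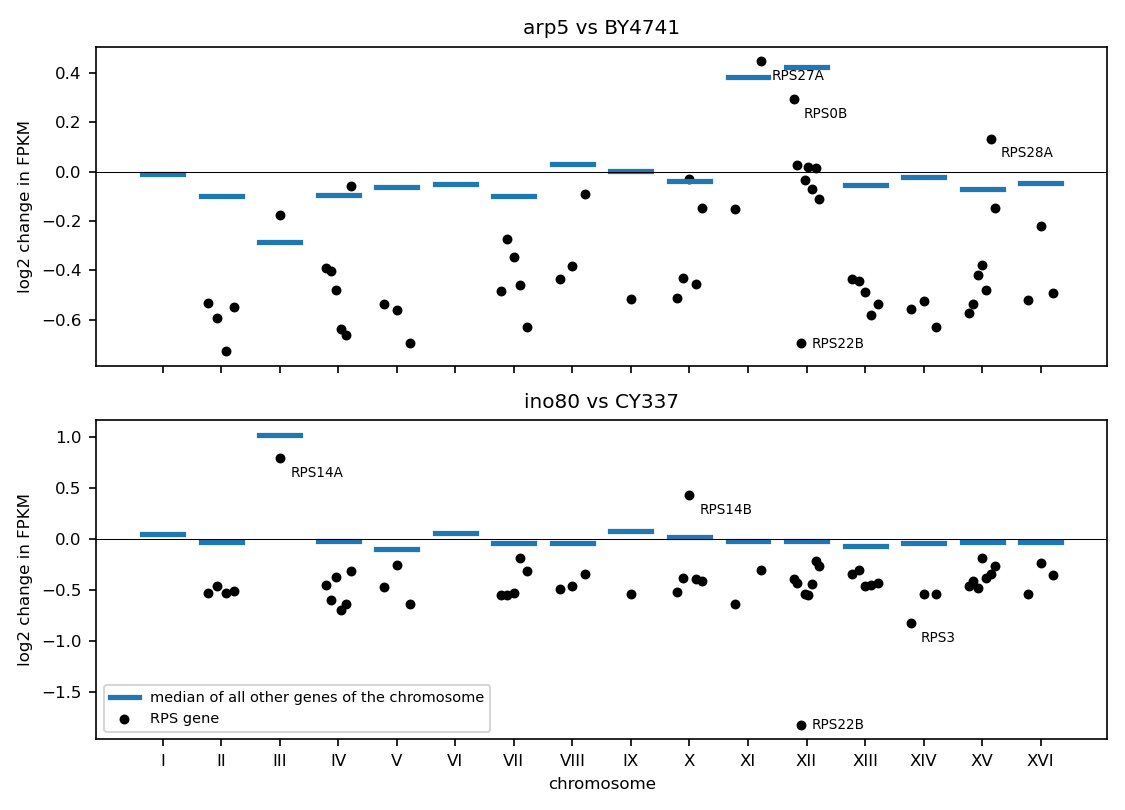
Log2 change in FPKM of each RPS gene (points) by chromosome in arp5 over BY4741 and in ino80 over CY337, with the median of all other genes of at least 300 bp of that chromosome (blue lines). Most members lie below the line of their chromosome; RPS14B in ino80 is at 0.43 where the line is near 0, and RPS22B is lowest in ino80 at -1.82.

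In ies6 the lowest members were RPS22B at -1.37, RPS9B at -0.81 and RPS17B at -0.71. The highest were RPS28A at -0.02, RPS29B at -0.08 and RPS27A at -0.13, all under 300 bp. In ies2 the lowest were RPS17B at -0.69, RPS30B at -0.67 and RPS26B at -0.66, and the highest were RPS29B at 0.15, RPS0B at 0.05 and RPS14B at 0.00. RPS17B and RPS26B were thus near the bottom of more than 1 strain. The 20 stress genes of the list had medians of 1.60 in ies6 and 1.04 in ies2 but -0.45 in arp5 and 0.20 in ino80, while the RPS medians of the 4 strains were between -0.54 and -0.44.

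In ino80 the lowest members were RPS22B at -1.82, RPS3 at -0.82 and RPS17B at -0.69. The highest were RPS14A at 0.80, RPS14B at 0.43 and RPS25A at -0.18. Both genes for Rps14, a platform protein that in yeast holds down its own RPS14B transcript, were the only members above 0. RPS14A (YCR031C, chromosome III, 177500 to 178220) went from 7024 FPKM in CY337 to 12188 in ino80. Chromosome III as a whole was higher there, and centred on that chromosome RPS14A stood at -0.23. RPS14B (YJL191W, chromosome X, 73787 to 74611) went from 871 to 1173 FPKM. Chromosome X was not raised, so its own chromosome's level leaves the change of RPS14B above 0. RPS14B in arp5 and ies2 stood at -0.03 and 0.00, and in ies6 at -0.46.

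RPS22B (YLR367W, chromosome XII, 856442 to 857317), a gene for Rps22 with an intron in its leader and another that hosts a small nucleolar RNA, was the lowest member in ies6 and in ino80. It had 1697 FPKM in BY4741, 1870 in sir3, 1047 in arp5, 656 in ies6, 1200 in ies2, 1126 in sir3 arp5, 1111 in CY337 and 314 in ino80. Every strain that lacks an INO80 subunit was below its own wild type, and CY337 was below BY4741. Its partner RPS22A, which has no intron in the coordinates, had 6887 FPKM in BY4741, 8539 in sir3, 6212 in arp5, 5448 in ies6, 6362 in ies2, 9000 in sir3 arp5, 6117 in CY337 and 4600 in ino80. RPS22A was lower by less in the 4 single deletions, at -0.15 in arp5, -0.34 in ies6, -0.11 in ies2 and -0.41 in ino80, and was higher in sir3 arp5, at 0.39. The log2 ratio of A to B went from 2.02 in BY4741 to 2.57 in arp5, 3.05 in ies6 and 2.41 in ies2, and from 2.46 in CY337 to 3.87 in ino80. The ratio of RPS22 was past 1.5-fold from control in ies6 and ino80 as deposited, and also in arp5 with each copy centred on its chromosome, by 1.02.

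In the sir3 arp5 strain the RPS genes had a higher median than in BY4741 and scattered far more widely. The median was 0.39 against BY4741 (1.31 times), 0.24 against sir3 and 0.78 against arp5, with the deposited scaling; against BY4741 it was -0.066 with quantile normalization and -0.063 with the loess, against sir3 -0.14 and -0.083, and against arp5 0.013 and -0.0033. Against BY4741, 22 members were higher and 5 lower past 1.5-fold, against 27.5% and 21.7% of all genes; with quantile normalization these were 7 and 10, and with the loess 4 and 13. Against sir3 these were 17 and 8, with 24.8% and 19.4% of all genes (quantile 5 and 12, loess 3 and 13). Against arp5 they were 33 and 0, with 23.2% and 18.3% (quantile 12 and 10, loess 9 and 11). Below 0 stood 16 members against BY4741, 17 against sir3 and 9 against arp5, with 48.8%, 48.2% and 50.1% of all genes. The other genes over 1000 FPKM had medians of 0.43, 0.36 and 0.64, close to those of the members. The strain has 1 library, and what it owes to that library cannot be told apart from its genotype.

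The highest members of sir3 arp5 against BY4741 were RPS15 at 1.41, RPS29B at 1.4 and RPS28A at 1.37. The lowest were RPS10B at -0.85, RPS23A, from a gene pair for a decoding-centre protein, at -0.72, and RPS9A at -0.71. Against sir3 the highest were RPS15 at 1.30, RPS28A at 1.24 and RPS25A at 1.19, and the lowest RPS10B at -0.86, RPS23A at -0.84 and RPS24B at -0.76. Against arp5 RPS15 stood at 1.78 and RPS25A at 1.70, and the lowest were RPS27A at -0.56, RPS28B at -0.55 and RPS9A at -0.49. RPS15 thus led all 3 comparisons, which share the sir3 arp5 column. With the deposited scaling all 8 genes of 1 copy were above 0 against BY4741, with a median of 0.76. Above 0 too were 3246 of 6345 genes tested and 144 of 222 other genes over 1000 FPKM. The 20 members with no intron had a median of 0.63 and the 36 with an intron 0.30. The 20 stress genes had a median of -1.42 in the same comparison.

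Between the wild types, the members' median was -0.08 in CY337 against BY4741 (0.0012 with the loess) while that of all genes was 0.37. As deposited, 38 members were below 0, against 24.6% of all genes. Relative to that shift the members stood at -0.44, and 55 of 56 were below the median of all genes. So were 79 of 82 RPL genes and 153 of 202 other genes over 1000 FPKM. With quantile normalization 31 members were below 0, and with the loess 28. Of the members, 2 were lower and 0 higher past 1.5-fold, against 6.42% and 30.8% of all genes. The lowest were RPS29A at -0.65, RPS22B at -0.61 and RPS25A at -0.57. The highest were RPS9A at 0.40 (712 FPKM), RPS11A at 0.34 and RPS7B at 0.23.

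Past 1.5-fold in either direction there were 0 members in sir3, 8 in arp5, 16 in ies6, 11 in ies2 and 27 in sir3 arp5 against BY4741, with 8.16%, 26.5%, 22.1%, 17.9% and 49.2% of all genes. Against sir3 and arp5 the sir3 arp5 strain had 25 and 33, with 44.2% and 41.5%, while ino80 had 8, with 30.1%, and CY337 had 2, with 37.2%. With quantile normalization or the loess there was 1 in ies6 and there were 0 in ies2. Past 2-fold there were 0 members in sir3, arp5, ies2 and CY337, with 4.12%, 10.5%, 5.77% and 11.8% of all genes. There was 1 in ies6 (9.36%) and 1 in ino80 (13.4%), RPS22B in both, and there were 5, 5 and 20 in sir3 arp5 against BY4741, sir3 and arp5 (27.1%, 22.4% and 18.7%).

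The A and B copies of a pair had unequal amounts of RNA, and the order of the copies was nearly fixed across genotypes. In BY4741 the A copy was higher in 15 of 24 pairs, 7 pairs were over 2-fold apart and 9 were less than 25% apart. The same copy was higher in all 8 genotypes in 19 pairs, and in BY4741 and CY337 in all 24. The 5 pairs whose order changed (RPS1, RPS6, RPS18, RPS21 and RPS30) were all less than 25% apart in BY4741. Copies with near-identical stretches can share reads, and how such reads were assigned is unknown here, so the ratios are those of the deposited values.

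The widest ratio in favour of A in BY4741 was that of RPS14, where A made up 88.8% of the pair's FPKM in BY4741, with a log2 ratio of 2.99. It lay between 2.75 in ies2 and 3.41 in sir3 arp5. In BY4741 the widest of all, in favour of B, was that of RPS9, where A made up 8.90% of the pair, with a log2 ratio of -3.35 in BY4741, -3.34 in sir3, -2.84 in arp5, -3.09 in ies6, -3.23 in ies2, -3.83 in sir3 arp5, -2.80 in CY337 and -2.50 in ino80. RPS9A was the minor copy everywhere. RPS16, the pair nearest to equal, had log2 ratios between -0.13 and -0.01 in 7 genotypes and -0.70 in sir3 arp5.

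**Figure D3:**
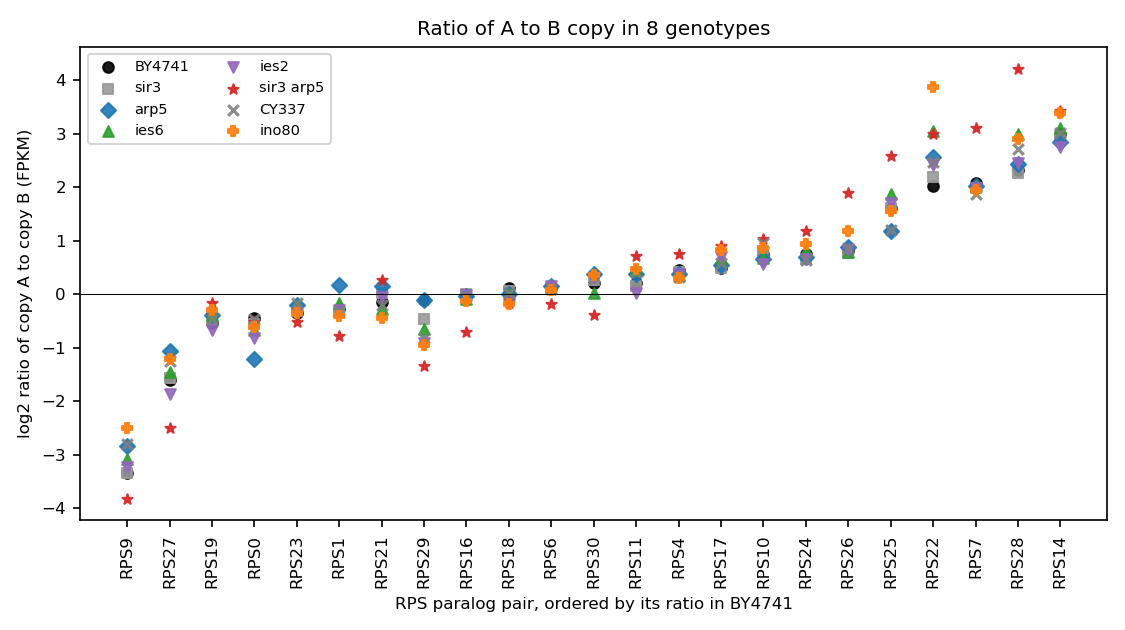
Log2 ratio of the A to the B copy (FPKM) for 23 of the 24 RPS pairs, ordered by the ratio in BY4741, with a symbol for each of the 8 genotypes. Most symbols of a pair fall together; the sir3 arp5 strain (stars) lies apart in many pairs, and RPS22 spreads from 2.02 in BY4741 to 3.87 in ino80.

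Few ratios moved in the deletions of a single gene. Past 1.5-fold from control there were 0 of 24 in sir3, 1 in arp5 (RPS0), 2 in ies6 (RPS22 and RPS28), 1 in ies2 (RPS29) and 1 in ino80 (RPS22). In arp5 the ratio of RPS0, whose protein is needed to finish the small subunit's RNA, went from -0.44 to -1.21. RPS0B lies on XII, and with each copy centred on its chromosome the change was -0.25. The ratio of RPS1 went from -0.29 to 0.17 in arp5, with RPS1A on XII, and its change was -0.01 after that centring. Neither ratio was past 1.5-fold from control after the centring. For RPS28, whose RPS28B transcript is held down by its own protein through decapping in yeast, the ratio went from 2.32 in BY4741 to 3.0 in ies6, and the change was 0.72 after centring. For RPS29 the ratio went from -0.11 in BY4741 to -0.91 in ies2, with values of -0.47 in sir3, -0.12 in arp5, -0.66 in ies6 and -0.83 in CY337, so these 171 bp genes varied between the wild types as well. CY337 against BY4741 had 1 ratio past 1.5-fold, that of RPS29.

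In sir3 arp5, which has 1 library, the ratio moved past 1.5-fold from BY4741 in 9 pairs, and with centring in 10. Of all genes, 49.2% were past 1.5-fold in this comparison, against 8.16% to 30.1% in the deletions of a single gene. A share for ratios between other genes was not taken. The ratio of RPS28 went from 2.32 to 4.21, that of RPS7 from 2.08 to 3.09, that of RPS26 from 0.81 to 1.88, that of RPS25 from 1.60 to 2.58 and that of RPS22 from 2.02 to 3.0. Those of RPS29, RPS27, RPS16 and RPS30 went down, from -0.11 to -1.35, from -1.60 to -2.51, from -0.03 to -0.70 and from 0.21 to -0.40. Against sir3 9 ratios were past 1.5-fold and against arp5 11, where RPS0 (0.68), RPS1 (-0.95) and RPS9 (-0.98) were among them; the column of the sir3 arp5 strain is the same in each. The copy with more RNA in BY4741 had the higher change in 19 of 24 pairs against BY4741, in 17 in ino80, in 13 in ies2, in 12 in ies6, in 10 in arp5 and in 8 in sir3. In RPS28, for example, A went from 27791 to 71913 FPKM and B from 5571 to 3871. In RPS7, A went from 4486 to 8190 and B from 1062 to 958.

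The authors' deposited tables of RNA along genes show that the shift in the INO80 subunit mutants was not even within the members that have an intron. These tables give the log2 ratio of mutant over wild type in 15 equal parts of each gene from 5′ to 3′. In the 36 members with an intron, the early parts (3 to 5) were higher in the mutant and the late parts (12 to 15) lower; in the 20 members with no intron both were lower by a like amount. In the authors' deposited table for arp5 the medians of the 36 were 0.38 early and -0.30 late, and those of the 20 were -0.12 and -0.13. For ies6 they were 0.40 and -0.29 against -0.15 and -0.15 in the authors' deposited table. For ies2 the authors' deposited table gave 0.74 and -0.19 against -0.14 and -0.12. For ino80 over CY337 it gave 0.75 and -0.31 against -0.17 and -0.16. In sir3 the medians in the authors' deposited table were 0.03 and 0.04, and 0.01 and 0.00, with no such step.

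The authors' deposited tables had the early parts above the late parts in 35 of 36 members with an intron in arp5, ies6 and ino80 and in 36 of 36 in ies2, against 19 of 36 in sir3. Over all genes of the authors' deposited tables this was so in 42%, 41.4%, 37.3%, 31.3% and 45% (arp5, ies6, ino80, ies2 and sir3). Of the 20 members with no intron it was so in 12, 9, 9, 5 and 16. The median of early minus late in the 36 was 0.65 in arp5, 0.66 in ies6, 0.90 in ies2, 1.03 in ino80 and 0.01 in sir3 in the authors' deposited tables. It was between 0.04 and 0.11 over 184 genes with an intron that are not ribosomal, in the 4 INO80 subunit mutants. The 53 RPL genes with an intron had 0.63, 0.57, 0.91 and 0.98 in arp5, ies6, ies2 and ino80.

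**Figure D4:**
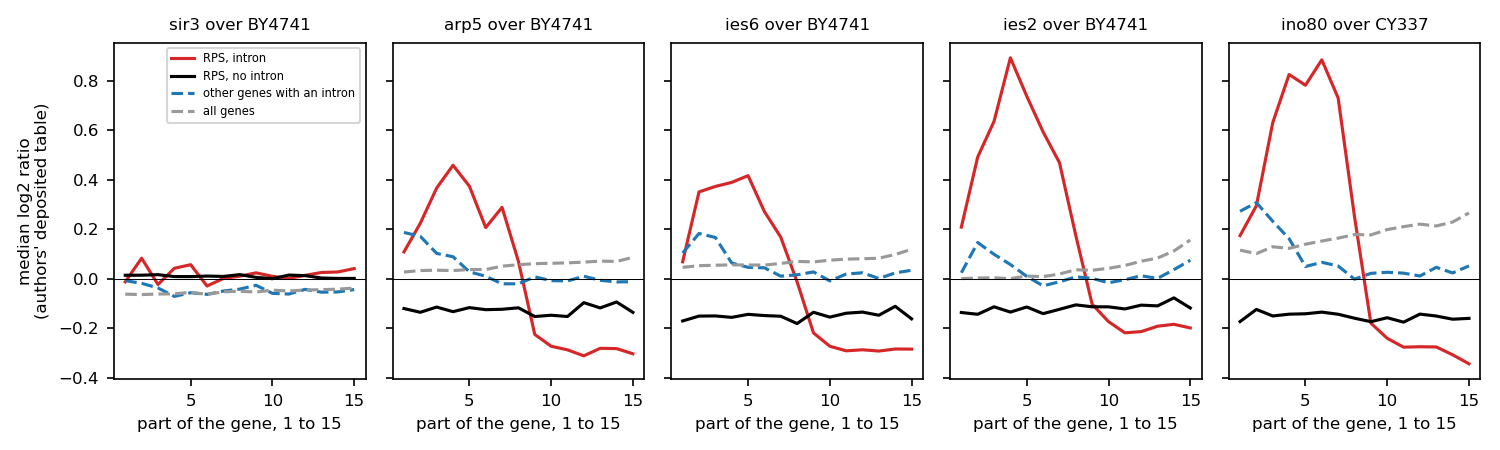
Median log2 ratio of mutant over wild type in the authors' deposited tables along 15 equal parts of the gene, for 36 RPS genes with an intron, 20 with none, 184 other genes with an intron and all genes. In arp5, ies6, ies2 and ino80 the RPS genes with an intron are above 0 in the first parts and below 0 from part 9 on, while those with none stay between -0.18 and -0.08 and sir3 stays near 0.

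Single members show the step plainly. RPS10B, in the authors' deposited table for ino80, had -0.22 and -0.23 in parts 1 and 2, then 1.92, 1.89 and 2.31 in parts 3 to 5, and -0.16 to -0.40 in parts 10 to 15. RPS0B in the authors' deposited table for ies6 had -0.18 in part 1, 2.12, 1.49 and 1.4 in parts 3 to 5, and values from -0.20 to -0.09 from part 7 on. In both, the higher parts lay inside the gene, with parts below 0 at either end. RPS9A in arp5 had 1.98 in part 1, 0.74, 1.03 and 1.15 in parts 3 to 5 and 0.03 over the late parts in the authors' deposited table. RPS24A in arp5, at -0.15 for early minus late, and RPS30A in ies6 and ino80, at -0.16 and -0.09, were the exceptions in the authors' deposited tables.

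RPS22B had another shape in the authors' deposited tables. In arp5 its parts 1 to 3 were at -1.35, -1.43 and -0.83, parts 6 to 9 at 1.11, 1.61, 1.88 and 1.5, and parts 13 to 15 at -0.21, -0.33 and -0.32. In ies6 the authors' deposited table gave -1.43, -1.32 and -0.87 in parts 1 to 3, 0.86 in part 7 and -0.84 in part 15. In ino80 it gave -1.09, -1.06 and -0.59, then 0.92 in part 6, and -0.35 in part 15. The middle of the gene was thus higher and both ends lower in each of these mutants, and its values in ies2 were smaller, from -0.34 to 0.44.

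The sizes of these ratios are not those of the FPKM changes. In genes over 50 FPKM in both genotypes the mean over the 15 parts went with the FPKM change at a slope of 0.146 where a part was under 15 bp wide, 0.581 at 35 to 55 bp and 0.811 above 90 bp in arp5, so short genes have compressed values in the authors' deposited tables. For ino80 the correlation over all such genes was 0.424, against 0.739 to 0.865 in the other tables; RPS14A had a late value of -0.32 in the authors' deposited table where its FPKM was higher. The libraries behind the table and the column are not named. Intron positions were not used, only the total intron length, so how much of the early parts is intron is unknown here. The 100 to 300 bp before the members with an intron were also higher in the authors' deposited tables, with medians of 1.11 in arp5, 0.97 in ies6, 0.98 in ies2 and 0.99 in ino80 against 0.50, 0.46, 0.31 and 0.69 over all genes. In the same order the authors' deposited tables gave 0.41, 0.42, 0.84 and 0.92 before the 20 members with no intron. Before the 29 RPL genes with no intron the authors' deposited tables gave 1.03, 0.59, 0.88 and 0.63. The part of these upstream values in the step was not tested.

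Arp5 was listed at the promoter of every RPS gene, as it was at most promoters. On the authors' list of Arp5 windows of 50 bp, all 56 members had at least 1 window within 500 bp before the gene, against 91.7% of all genes. The median member had 11 listed windows against 8 over all genes, and the promoter was listed over its whole length in 36 of 56, which is 64.3%, against 32% of all genes and 55.1% of the other genes over 1000 FPKM in BY4741. The highest window of the median member was 1.00 (log2 over input), against 0.84 over all genes and 1.05 over those other highly expressed genes. The height of Arp5 at RPS promoters was thus near that at other highly expressed genes. This was 1 library, in synchronised cells of another strain.

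The highest Arp5 windows were at RPS3 with 1.58, RPS14A with 1.36 and RPS15 with 1.34. The lowest were at RPS28A with 0.44, RPS22B with 0.58 and RPS31 with 0.62. RPS28A had 3 listed windows and RPS22B had 11. Within pairs, the copy with more RNA had the higher Arp5 window in 12 of 24, and across the 56 members the highest window and the BY4741 FPKM had a Spearman correlation of 0.05, a description over members of 1 library each.

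H3K4me3, a mark of the 5′ end of active genes, was higher at RPS genes than at the median gene in BY4741 and higher again in arp5. Over the first 500 bp of the gene the members' median log2 over input was 2.05 in BY4741 and 2.38 in arp5, against 1.42 and 1.30 over all genes. The median difference was 0.30, against -0.03 over all genes and 0.15 over the other genes over 1000 FPKM, and 51 of 56 members were higher in arp5, against 46.9% of all genes. RPL genes had a median difference of 0.33. Each strain had 1 library of the mark, so the spread between libraries is unknown. RNA of the same members was lower in arp5, and across the 56 the RNA change and the H3K4me3 difference had a Spearman correlation of -0.06, over members of the same libraries.

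The largest differences were in RPS17A, from 2.0 in BY4741 to 2.81 in arp5, RPS3, from 2.11 to 2.74, and RPS31, from 1.86 to 2.44. The mark was lower in arp5 in RPS22B (1.80 to 1.28), RPS25B (2.13 to 1.80), RPS29A (2.02 to 1.89), RPS9A (1.90 to 1.79) and RPS26A (2.31 to 2.26). RPS22B was thus lowest both in H3K4me3 difference and, in ies6 and ino80, in RNA.

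At most RPS genes the mark was below input before the gene. The median of the 250 bp before the start was -1.01 in BY4741 and -0.51 in arp5, against 0.18 and 0.10 over all genes. In 9 of 56 members, against 5.16% of all genes, the same stretch stood above 1.5 in BY4741, among them both copies of RPS25, RPS26 and RPS29, and RPS22B. RPS25A had 2.30 there in BY4741 and 2.67 in arp5, RPS29A had 2.22 and 2.73, and RPS22B had 2.11 and 2.0. Starts are those of the coding sequence in the authors' coordinates, so a leader or its intron counts as before the gene.

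**Figure D5:**
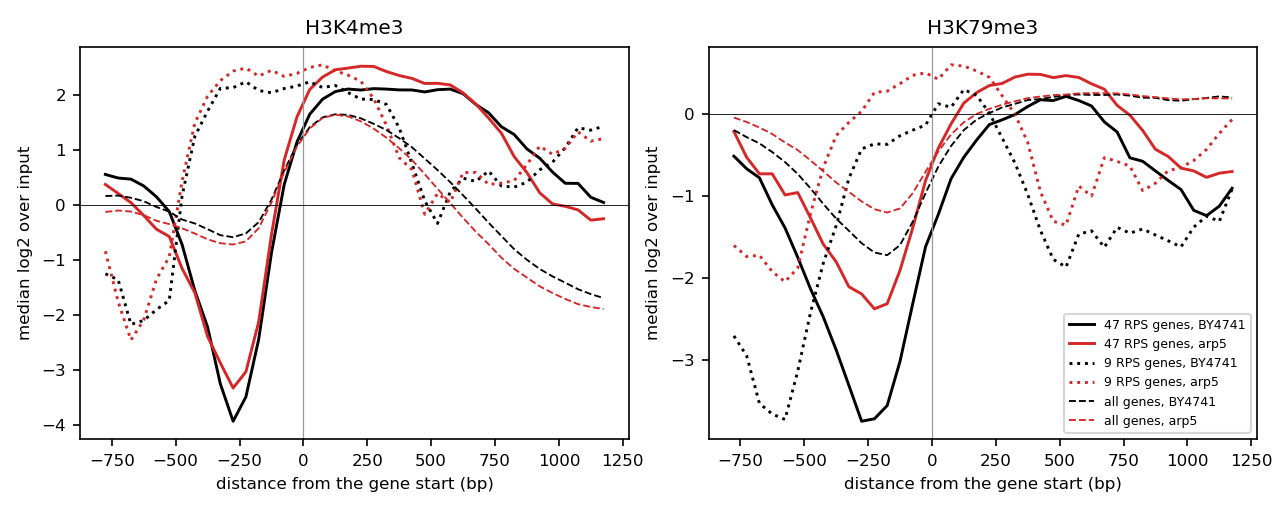
Median log2 over input of H3K4me3 and H3K79me3 by distance from the coding start (bp) in BY4741 (black) and arp5 (red), for 47 RPS genes (solid), the 9 with H3K4me3 before the start (dotted) and all genes (dashed). In the 47, H3K4me3 is lowest at -275 bp, at -3.94 in BY4741 and -3.33 in arp5, and the median of H3K4me3 is higher in arp5 from the start to 675 bp and lower from 725 bp on, while that of H3K79me3 is higher throughout the plotted stretch after the start.

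H3K79me3, which lies over gene bodies, had a median of -0.06 over the members in BY4741 and 0.34 in arp5, against 0.08 and 0.14 over all genes. All 56 members were higher in arp5, against 53.8% of all genes, with a median difference of 0.41. Higher too were 88.3% of the other genes over 1000 FPKM, with a median difference of 0.48, and 97.6% of the RPL genes, with 0.51. Values over all genes ran from -5.14 to 1.48 in BY4741 and, more narrowly, from -3.03 to 1.16 in arp5. The part of this narrower range was not tested, and each strain had 1 library of the mark. In BY4741 the mark was lowest on RPS9A at -1.67, RPS14B at -1.63 and RPS28A at -1.40. The largest differences were in RPS22A (-1.29 to 0.04), RPS31 (-1.04 to 0.05) and RPS9A (-1.67 to -0.65). RPS22A and RPS14B are neighbours on chromosome X with 298 bp between them, so some windows near their ends are close to both.

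Regulators of ribosomal protein genes were called at about the share of all genes, or below it, in the 4 single INO80 subunit deletions. Of 14 regulators of ribosomal protein genes, 2 were higher and 1 lower past 1.5-fold in arp5, where 14.6% and 11.9% of all genes were, with a median of 0.21. IFH1, the co-activator of Fhl1 at these promoters, went from 12.9 to 28.5 FPKM in arp5 (1.09) and lies on XII, and from 21.8 to 35.9 in ino80 (0.69). HMO1, a high-mobility protein that binds many of these promoters, went from 282 to 183 FPKM in arp5 (-0.62) and from 363 to 219 in ino80 (-0.73). DOT6, a repressor of ribosome biogenesis genes, was at 0.66 in ies6 and -1.14 in ino80. In ies6 the regulators had 1 higher and 0 lower with a median of 0.11, in ies2 1 and 0 with 0.22, and in ino80 1 and 2 with -0.04. All genes were higher and lower past 1.5-fold in 12% and 10.1% in ies6, 10.1% and 7.79% in ies2, and 17.3% and 12.8% in ino80. In sir3 arp5 against BY4741, 4 regulators were higher and 0 lower, where 27.5% and 21.7% of all genes were, with a median of 0.39.

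Of 19 assembly factors of the small subunit, 0 were higher and 1 lower past 1.5-fold in arp5, 0 and 0 in ies6, 0 and 1 in ies2 and 2 and 1 in ino80, with medians of 0.07, -0.16, -0.13 and -0.12. Of all genes, 14.6% were higher and 11.9% lower in arp5, 12% and 10.1% in ies6, 10.1% and 7.79% in ies2, and 17.3% and 12.8% in ino80. In sir3 arp5 7 assembly factors were higher and 0 lower, with a median of 0.13, where 27.5% and 21.7% of all genes were. BUD23, a methyltransferase of the small subunit's RNA, lies on III and was at -0.70 in arp5, -0.58 in ies6 and 0.85 in ino80. ASC1, a protein bound to the subunit, went from 5104 FPKM in BY4741 to 5405 in arp5, 3782 in ies6, 4028 in ies2 and 11734 in sir3 arp5, and from 3630 in CY337 to 4981 in ino80. STM1, which clamps idle ribosomes, went from 2253 to 1979, 1553, 1620 and 1924 (arp5, ies6, ies2 and sir3 arp5), and from 2704 in CY337 to 1856 in ino80. Of 31 genes for the small subunit of the mitochondrial ribosome, 3 were lower past 1.5-fold in arp5, 1 in ies6, 10 in ies2 and 0 in ino80. For all genes these shares were 11.9%, 10.1%, 7.79% and 12.8%. Higher were 3 in ino80, against 17.3% of all genes, and 0 in the other 3 strains. The medians of the 31 genes were -0.24 in arp5, -0.06 in ies6, -0.44 in ies2 and 0.28 in ino80. In sir3 arp5 3 were higher and 12 lower, with a median of -0.43, where 27.5% and 21.7% of all genes were.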

How the data were processed

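RNA values are FPKM deposited by the authors on sacCer3 with 1 column for each of 8 genotypes; 3 libraries each of BY4741, sir3, arp5 and ies6, 2 each of ies2, CY337 and ino80 and 1 of sir3 arp5 are labelled, and which of them entered a column is unknown here. The submitters' processing notes name Cuffdiff (2.0.2) and, as aligners, TopHat2 (2.0.8) and Bowtie. The labels name the TruSeq v2 kit, which does not mark strand, for all RNA libraries; the authors also deposited sense and antisense tables along 1553 genes, 13 of them members, which were not used, and whether strand was used for FPKM is unknown here. ChIP values are log2 ratios over input in 50 bp windows, deposited by the authors (aligner Bowtie, version 0.12.9, in those notes), and the tables along genes hold the authors' log2 ratios of mutant over wild type. How the ratios were scaled and how Arp5 windows were chosen is unknown here.

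Changes were computed as log2 of (FPKM + 1) for genes of at least 5 FPKM in either genotype, on the log2(value + pseudocount) scale, which understates low genes. Nothing was tested, because each genotype has 1 column; calls are past 1.5-fold. Code for changes and windows was tested on simulated data. H3K4me3 was averaged over windows centred in the first 500 bp of the gene, H3K79me3 over the gene, and Arp5 windows were counted if they overlapped the 500 bp before it by at least 1 bp. Coordinates came from the tables along genes; symbols came from a reference table (5989 genes matched). No sequence or motif was analysed here.

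Some members are not reported here by name. Named were otherwise the 3 highest and lowest members of each comparison and of each ChIP measure, the genes of 1 copy, pairs with the widest, the narrowest or a moved ratio, and the extremes of each list; members shown along the gene, and RPS29 and RPS1 as examples, were chosen after their values were seen. Early parts 3 to 5 and late parts 12 to 15 were set after profiles were seen. The members and lists were chosen with earlier results of these data known. Python 3.11.15 with numpy 2.4.6, pandas 2.3.3 and statsmodels 0.14.6 was used. Depth per library is unknown, and lengths are coding lengths.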

Additional observations from a re-analysis of the deposited data

Results flagged for a closer look

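As deposited, the arp5 deletion went with opposite RPS changes in the presence and absence of SIR3. In BY4741 the members' median change was -0.45, and in sir3, where sir3 arp5 is set against sir3, it was 0.24; the median over members of the difference was 0.66. Of 56 members 36, or 64.3%, were lower in the first and higher in the second, against 18.2% of 6231 genes tested in both. The difference was not tested, since each strain has 1 column. The sir3 arp5 column rests on 1 library. With the loess the members' medians were -0.19 in BY4741 and -0.083 in sir3. With quantile normalization they were -0.14 and -0.14, so under either scaling the signs were alike. As deposited, the RPL genes had medians of -0.39 and 0.28, and the other genes over 1000 FPKM had -0.14 and 0.36.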

How the results depend on the processing

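No paired analysis was possible because the deposited columns carry no replicate, and for the same reason no replicate could be left out. Quantile normalization and the loess moved the members' median change most, to -0.14 and -0.19 in arp5, -0.19 and -0.19 in ies6, -0.12 and -0.10 in ies2, -0.0235 and -0.0186 in ino80, -0.0661 and -0.063 in sir3 arp5 against BY4741, -0.14 and -0.0827 against sir3, and 0.0129 and -0.00329 against arp5; the cause was not tested. Centred on all genes or on chromosomes, CY337 against BY4741 stood at -0.44 and -0.43.

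Counts past 1.5-fold became, with quantile normalization and the loess, 2 and 1 in arp5, 1 and 1 in ies6, 0 and 0 in ies2, 3 and 3 in ino80, 17 and 17 in sir3 arp5 against BY4741, and 1 and 1 in CY337; with the loess 16 against sir3 and 20 against arp5. Past 2-fold they were 0 in arp5, 1 in ies6, 0 in ies2, 1 in ino80, 5, 5 and 20 in sir3 arp5, and 0 in CY337. Centred on chromosomes they were 4 in arp5, 7 in ies2 and 16 in CY337, and centred on all genes 15 in CY337. Without members on I, III, XI and XII, a choice made after the values were seen, they were 5 in ino80 and 0 in CY337.

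Pairs with a moved ratio were 2 in arp5, 1 in ies6, 0 in ies2 and 2 in CY337 with quantile normalization, 2 in arp5 and 2 in ino80 with each copy centred on its chromosome, and, past a change of 25%, 1 in sir3, 6 in arp5, 3 in ies2, 3 in ino80, 6 in CY337, and 18, 16 and 19 in sir3 arp5 against BY4741, sir3 and arp5. RPS14A in ino80 reversed to -0.23 when centred on its chromosome.

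H3K4me3 from 250 bp before to 500 bp after the start was 0.98 in BY4741 and 1.38 in arp5. Over the first 500 bp of the gene and centred on all genes, H3K4me3 was 0.63 and 1.08 with a difference of 0.42. With the same centring H3K79me3 over the gene was 0.21 in arp5. In the authors' deposited tables along genes the members' medians over all 15 parts became, as a median over parts, -0.14 in arp5, -0.0927 in ies2 and -0.16 in ino80, and over the last 5 parts -0.25 in arp5, -0.24 in ies6, -0.16 in ies2 and -0.25 in ino80. Of the other alternatives, 199 kept the main result within 0.1 (log2) or 1.5 times, among them early minus late with other parts or without RPS9A, RPS14B and RPS22B. Depth is unknown.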
